A study of Mus musculus with 8 samples.

Results

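The genes described here are the receptors of the interleukin-1 (IL-1) family and the IL-1 receptor antagonist, in regulatory T cells (Treg) sorted from bone marrow (BM-Treg) and from spleen (SP-Treg). They were chosen by name, namely Il1r1, Il1r2, Il1rn, Il1rap, Il1rl1, Il18r1 and Il18rap, and make up 7 of the 38215 genes and 28 of the 92351 transcripts in the deposited tables. The RNAseq comprised 4 BM-Treg and 4 SP-Treg libraries from untreated mice aged 12 weeks. These were of the strain C57Bl/6 in the sample labels and of the reporter line B6.FoxP3-GFP in the study's results. In this line green fluorescent protein marks the cells that express FoxP3, so each library represents whatever passed that gate and not a single Treg subset. In the labels, batch 1 holds BM-Treg replicates 1 to 3, called female, and batch 3 holds BM-Treg replicate 4 together with the 4 SP-Treg libraries, called male. Batch and labelled sex therefore cannot be told apart, and batch 3 holds a single BM-Treg library. The study's methods speak of female mice unless stated otherwise, whereas the labels of batch 3 say male. They call the replicates biological, but neither they nor the titles say whether each came from a separate animal, and p-values then measure only the spread between these samples.

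IL-1 alpha and IL-1 beta bind the type I receptor (Il1r1), which recruits the accessory protein encoded by Il1rap and signals through its cytoplasmic TIR domain to MyD88, IRAK kinases and NF-kappa-B. Il1r2 encodes a decoy that binds IL-1 but lacks the TIR domain, and Il1rn encodes an antagonist that occupies the type I receptor without activating it; both are known from follicular regulatory T cells of lymphoid organs and from myeloid cells. Il1rl1 encodes ST2, the receptor of IL-33 and a marker of Treg in non-lymphoid tissue, which shares the accessory protein with the IL-1 receptor, whereas Il18r1 and Il18rap encode the chains of the IL-18 receptor.

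Expected counts, which are estimated reads per gene and need not be whole, came to 17544552, 20507445, 21921252 and 12427136 over the genes of BM-Treg replicates 1 to 4. They came to 12938469, 13278601, 12924964 and 14121975 in SP-Treg replicates 1 to 4. Levels of a gene between libraries are given as CPM, the expected counts scaled to the library size after TMM normalization, and levels between genes as FPKM, in which counts are also divided by transcript length. Genes that define the sorted cells were abundant throughout. Foxp3 measured 1746 ± 246 CPM in bone marrow and 1458 ± 193 CPM in spleen (SD, n = 4), and Cd4 871 ± 96.0 and 782 ± 79.5 CPM. The T cell and Treg genes examined numbered 9 and also included Il2ra, Ctla4, Ikzf2 and Cd3e. Of these, edgeR called 0 different and DESeq2 called 1 (Il2ra), compared to 8.75% and 12.7% of all genes tested. An unadjusted p under 0.05 in edgeR was reached by 2 (Cd3d and Il2ra), compared to 23.3% of all genes. Il2ra measured 797 ± 96.0 CPM in bone marrow and 1226 ± 395 CPM in spleen (log2 fold change -0.62, edgeR adjusted p = 0.0803). The 9 genes summed to 8525 ± 664 CPM in bone marrow and 8802 ± 319 CPM in spleen.

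All 7 genes passed the expression filter, and 3 of them differed between the tissues at an adjusted p under 0.05 (quasi-likelihood test in edgeR, adjusted by Benjamini and Hochberg over 13397 genes), compared to 8.75% of all genes tested. Il1rl1 was upregulated in BM-Treg, where 3.72% of all genes were called higher, and Il1r2 and Il1rn were downregulated, where 5.02% of all genes were called lower. In these same 3 genes no BM-Treg library overlapped the SP-Treg libraries in CPM, which held for 16.2% of all genes tested. The other 4 genes were not called, with intervals that are given with each gene. Whether a lower level reflects fewer cells that express a gene or less RNA per cell cannot be told apart in bulk libraries.

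The order of the genes by FPKM differed between the tissues. In BM-Treg it ran from Il18r1 (17.6 ± 1.89) and Il1rl1 (16.6 ± 2.32) over Il1r2 (10.02 ± 5.73), Il18rap (6.19 ± 1.73), Il1rn (3.65 ± 2.10) and Il1rap (2.27 ± 0.217) to Il1r1 (1.33 ± 1.29; mean ± SD, n = 4). In SP-Treg the order was Il1r2 (41.4 ± 14.7), Il1rn (23.6 ± 7.11), Il18r1 (17.3 ± 11.1), Il1rl1 (7.16 ± 1.79), Il18rap (4.25 ± 1.61), Il1rap (2.10 ± 0.299) and Il1r1 (1.73 ± 0.544). Neighbours in the BM-Treg order overlapped in their libraries at every step. In SP-Treg they also overlapped, except that every Il18rap value lay above every Il1rap value. The decoy and the antagonist thus stood at the top of the order in spleen, and Il18r1 and Il1rl1 in bone marrow.

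**Figure D1:**
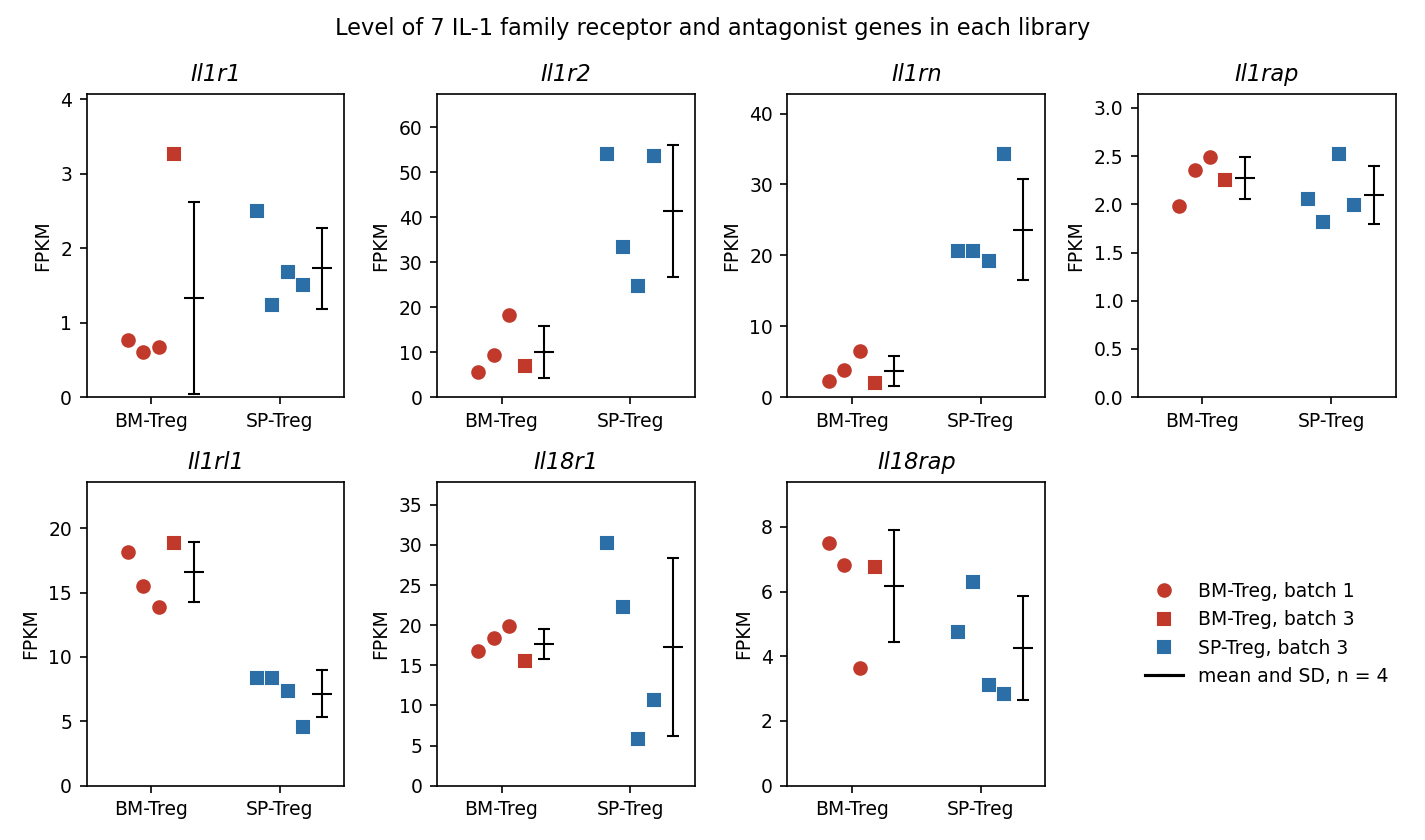
FPKM of each of the 7 genes in each library, by tissue; circles are batch 1, squares batch 3, and bars show the mean and SD (n = 4). Il1r2 and Il1rn lay lower in every BM-Treg library than in any SP-Treg library and Il1rl1 higher, while Il1r1 in BM-Treg replicate 4 (3.26 FPKM) lay apart from replicates 1 to 3 (0.61 to 0.77 FPKM).

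The antagonist gene Il1rn lies on chr2:24336853-24351494 (plus strand, GRCm38). Its transcripts with most counts begin their coding sequence in different exons and then share the rest, which decides whether the protein carries a secretory signal: the secreted form is encoded by Il1rn-201, and an intracellular form by Il1rn-204. The starts of these coding sequences are shown because the tissue difference was spread over them. They were read from GENCODE vM21 (GRCm38) and run 5′ to 3′ on the plus strand. Capitals mark the coding bases particular to each form, and lower case the shared coding bases at chr2:24345520-24345571. The capitals of Il1rn-202 lie within the span of Il1rn-201, whose RNA may hold them outside its coding sequence. The capitals lie at chr2:24345453-24345519 in Il1rn-201, chr2:24345350-24345368 in Il1rn-202 and chr2:24336983-24336992 in Il1rn-204.
Il1rn-201: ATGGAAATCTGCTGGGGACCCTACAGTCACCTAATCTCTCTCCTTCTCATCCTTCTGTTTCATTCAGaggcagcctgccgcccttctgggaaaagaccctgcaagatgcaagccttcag
Il1rn-202: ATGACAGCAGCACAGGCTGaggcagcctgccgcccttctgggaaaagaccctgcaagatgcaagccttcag
Il1rn-204: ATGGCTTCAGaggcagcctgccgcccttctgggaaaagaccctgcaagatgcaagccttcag

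Il1rn measured 3.13, 4.64, 8.46 and 3.09 CPM in BM-Treg replicates 1 to 4 and 27.5, 27.0, 23.7 and 42.5 CPM in SP-Treg replicates 1 to 4. The highest BM-Treg library lay well under the lowest SP-Treg library. The log2 fold change was -2.61 (SE 0.33, 95% interval -3.34 to -1.89, edgeR adjusted p = 0.00141), and within batch 3 it was -3.26. It was called under each of the 19 alternative settings tried. Among them, batch 3 alone has a single BM-Treg library, so that the spread between libraries there came from the SP-Treg libraries only.

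The 3 forms of Il1rn did not differ visibly in direction. With expected counts scaled by normalized library size, Il1rn-201 had 1.64, 1.03, 5.39 and 0.849 CPM in BM-Treg and 11.2, 11.7, 10.2 and 20.5 CPM in SP-Treg. Il1rn-202 had 0.633, 1.17, 1.98 and 0.604 compared to 5.50, 8.16, 8.71 and 13.5 CPM, and Il1rn-204 had 0.855, 2.24, 1.09 and 1.64 compared to 10.7, 7.01, 4.82 and 8.06 CPM. For each form every BM-Treg library lay under every SP-Treg library, while 9.84% of all transcripts tested had no overlap between the tissues. Log2 fold changes were -2.55, -2.99 and -2.38, with edgeR adjusted p of 0.149, 0.0609 and 0.066 over 28756 transcripts. Counts of overlapping transcripts are estimates, and the uncertainty of assigning a read to a form is not part of the test.

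As a share of the gene's counts, Il1rn-204 took 27.4, 48.4, 12.8 and 53.1% in BM-Treg and 38.8, 26.0, 20.3 and 19.0% in SP-Treg. Il1rn-202 took 20.2, 25.2, 23.4 and 19.5% and 20.03, 30.3, 36.7 and 31.7%. The shares overlapped between the tissues for each form, and the means of Il1rn-202 differed by -7.58 percentage points (exact two-sided permutation p = 0.114). Il1rn-204 differed by 9.38 points, with 27.0 within batch 3, 3.49 without BM-Treg replicate 4 and 16.9 without BM-Treg replicate 3.

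The decoy receptor gene Il1r2 lies on chr1:40084768-40125219, next to the other receptor genes of the family on that chromosome, and has a single transcript in the tables. Il1r2 measured 6.80, 11.1, 22.2 and 9.03 CPM in BM-Treg replicates 1 to 4 and 63.3, 44.6, 33.7 and 70.0 CPM in SP-Treg replicates 1 to 4. The tissues did not overlap, and BM-Treg replicate 3 came closest to the spleen, as it did for Il1rn. The log2 fold change was -2.09 (SE 0.40, 95% interval -3.03 to -1.15, edgeR adjusted p = 0.0193), and -2.53 within batch 3. It was called in 12 of 19 alternatives. The settings without the call included those without BM-Treg replicate 2 (log2 fold change -2.04, edgeR adjusted p = 0.0712) and without BM-Treg replicate 4 (-1.98, 0.0556), with a batch term (-2.55, 0.158), on batch 3 alone (0.0808), with no filter beyond 1 count (0.06) and at a threshold of 0.01, and the alternatives together gave adjusted p of 6.7e-05 to 0.158.

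Il1r2 and Il1rn also resembled each other more than they resembled any other gene. Among 11526 genes whose log2 CPM averaged 1 or more, the pattern of each over the 8 libraries was compared as the root mean square difference of centred log2 CPM. Il1rn was the nearest gene to Il1r2 and Il1r2 the nearest to Il1rn, at a difference of 0.33. The measure includes the tissue difference already given for Il1r2 and Il1rn, so that their closeness follows in part from it. Next to Il1r2 came Gna14 (0.34), a G protein subunit, and next to Il1rn came Sspo (0.38) and Egr2 (0.41), a transcription factor induced by T cell receptor signals. These 3 were called lower in BM-Treg by edgeR, with log2 fold changes of -1.81, -2.97 and -2.41. Since they were chosen by likeness to genes with this difference, their calls follow largely from the choice.

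The type I receptor Il1r1, on chr1:40225080-40316198, had the lowest mean FPKM of the 7 genes in both tissues. Its spread relative to its mean was the widest of the 7 in bone marrow. Il1r1 measured 3.45, 2.69, 3.02 and 15.9 CPM in BM-Treg replicates 1 to 4 and 10.9, 6.15, 8.54 and 7.28 CPM in SP-Treg replicates 1 to 4. BM-Treg replicates 1 to 3, of batch 1, lay under every spleen library, and BM-Treg replicate 4, of batch 3, lay above every one. The pooled log2 fold change of -0.43 (SE 0.58, 95% interval -1.77 to 0.90, edgeR adjusted p = 0.712) therefore joined libraries that went opposite ways. Within batch 3 it was 0.97, and without BM-Treg replicate 4 it was -1.43 (edgeR adjusted p = 0.00605, with a range of 0.00605 to 0.909 over the alternatives). The direction for bone marrow as a whole thus cannot be told apart from batch or labelled sex.

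A coefficient for batch, which compares BM-Treg replicate 4 with replicates 1 to 3 and was added after the data had been seen, was 2.38 on the log2 scale for Il1r1 (SE 0.32, edgeR adjusted p = 0.00908). It rests on a single library that had been seen to stand apart, with the spread taken from the other libraries, so that its p-value restates that observation. Il1r1 was 1 of 12 genes called for it, or 0.0896% of 13397, and 1 of 7 members. For the other 6 members the edgeR adjusted p was 0.727 or above. Il1r1 missed the threshold without BM-Treg replicate 2 (edgeR adjusted p = 0.0743) and without BM-Treg replicate 3 (0.0519), where 7 and 6 genes were called, and DESeq2 called 39 genes, Il1r1 among them (adjusted p = 1.94e-06, the lowest of a range of 1.94e-06 to 0.0743). The list of 12 also held Xist (-9.53), as the labelled sexes would have it. Of the genes closest to Il1r1 in pattern, AC123795.1 (0.38), Tmem149 (0.39) and Fam166a (0.40), the first and the last were among the 12. Their choice by pattern favours such a call.

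The balance of decoy over signalling receptor was described by the log2 ratio of Il1r2 to Il1r1 in FPKM, with 0.1 added to each value. It was 2.71, 3.72, 4.58 and 1.06 in BM-Treg replicates 1 to 4 and 4.38, 4.64, 3.80 and 5.07 in SP-Treg replicates 1 to 4. The decoy exceeded the signalling receptor in every library, and the tissues overlapped through BM-Treg replicate 3. The mean was 3.02 ± 1.51 in BM-Treg and 4.47 ± 0.53 in SP-Treg (SD, n = 4). In batch 3 the single BM-Treg library, at 1.06, lay under all 4 SP-Treg libraries.

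**Figure D2:**
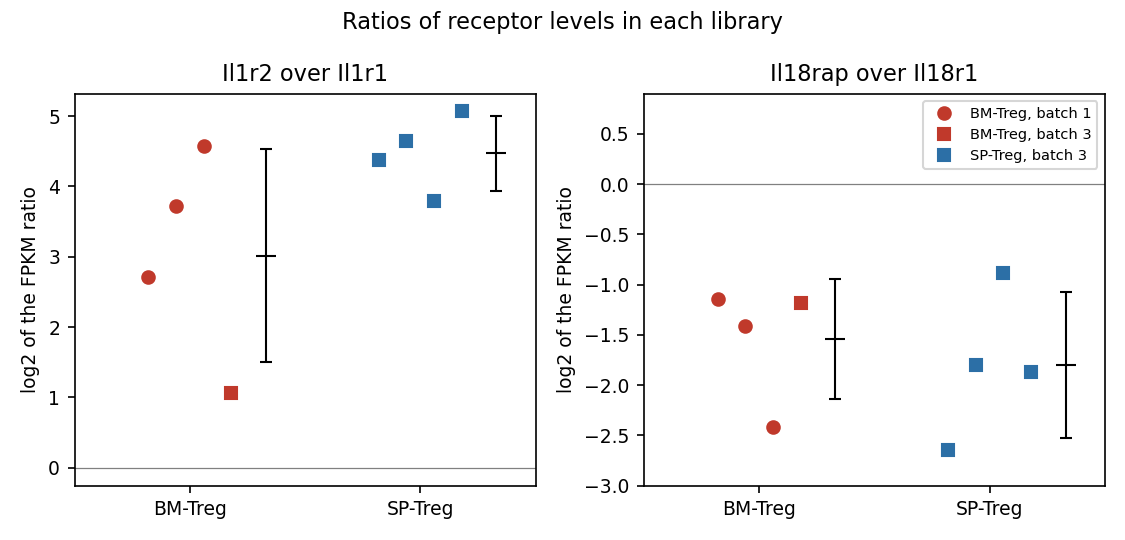
Log2 ratio of FPKM values in each library for Il1r2 over Il1r1 (left) and Il18rap over Il18r1 (right); circles are batch 1, squares batch 3, bars the mean and SD (n = 4), and the grey line marks equal levels. The decoy exceeded Il1r1 in all 8 libraries, least so in BM-Treg replicate 4 (1.06).

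The accessory protein gene Il1rap lies on chr16:26581704-26730117 and serves the IL-1 and IL-33 receptors alike. Il1rap measured 7.40, 8.67, 9.38 and 9.20 CPM in BM-Treg replicates 1 to 4 and 7.34, 7.10, 10.2 and 8.45 CPM in SP-Treg replicates 1 to 4. Its levels overlapped and varied little within either tissue. The log2 fold change was 0.07 (SE 0.19, 95% interval -0.33 to 0.47, edgeR adjusted p = 0.873), with 0.17 within batch 3, so that the interval excludes a change as large as those of Il1r2, Il1rn and Il1rl1. Without SP-Treg replicate 2 the value was -0.0013. The genes closest in pattern were Pdcd5 (0.08), Ntan1 (0.08) and BC005624 (0.09).

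Besides the membrane protein, Il1rap encodes a soluble form, which lacks the membrane-spanning segment and the TIR domain. The transcripts Il1rap-201 (membrane form, 570 codons) and Il1rap-206 (soluble form, 360 codons) share their first 1051 coding bases and part at the end of an exon, where Il1rap-206 reads on into what is intron for Il1rap-201 for 32 bases up to and including its stop codon. The stretch around this point is shown as the base by which reads can tell the forms apart, from GENCODE vM21 (GRCm38), plus strand, 5′ to 3′, with the shared 45 bases at chr16:26701192-26701236 in lower case and the bases that follow in each form in capitals (chr16:26710481-26710540 in Il1rap-201, chr16:26701237-26701268 in Il1rap-206).
Il1rap-201: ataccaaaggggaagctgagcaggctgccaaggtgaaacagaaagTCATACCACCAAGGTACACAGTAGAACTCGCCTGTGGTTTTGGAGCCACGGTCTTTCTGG
Il1rap-206: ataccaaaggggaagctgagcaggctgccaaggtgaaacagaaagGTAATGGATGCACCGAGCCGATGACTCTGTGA

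The soluble form had 19.2, 25.8, 9.71 and 14.3 expected counts in BM-Treg and 16.6, 19.2, 21.1 and 9.01 in SP-Treg. It took 14.2, 13.8, 4.54 and 13.0% of the gene's counts in BM-Treg and 16.3, 21.7, 17.3 and 7.81% in SP-Treg. The shares overlapped, and their means of 11.4 ± 4.58% and 15.8 ± 5.80% (SD, n = 4) differed with an exact two-sided permutation p of 0.286. The difference of -4.39 percentage points moved to -2.12 without BM-Treg replicate 3, -2.42 without SP-Treg replicate 2 and -7.05 without SP-Treg replicate 4. At these counts a change in the share would have to be large to be seen.

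The IL-33 receptor gene Il1rl1 lies on chr1:40429570-40465415, directly before Il18r1 on the same strand, and is read from 2 promoters far apart. Il1rl1 measured 74.9, 59.8, 58.9 and 77.4 CPM in BM-Treg replicates 1 to 4 and 35.4, 40.1, 34.5 and 21.6 CPM in SP-Treg replicates 1 to 4. Each BM-Treg library lay above each SP-Treg library, and the library of batch 3 was the highest of the 4. With a log2 fold change of 1.04 (SE 0.17, 95% interval 0.67 to 1.41, edgeR adjusted p = 0.00244) and 1.25 within batch 3, it was called in 18 of 19 alternatives, the exception being batch 3 alone with its single BM-Treg library. The genes closest in pattern were 8430427H17Rik (0.14), Slc24a6 (0.16), a sodium/calcium exchanger, and Plxnd1 (0.16), a semaphorin receptor. All were called higher by edgeR, with log2 fold changes of 0.98, 0.89 and 0.88, which follows largely from their choice by pattern.

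**Figure D3:**
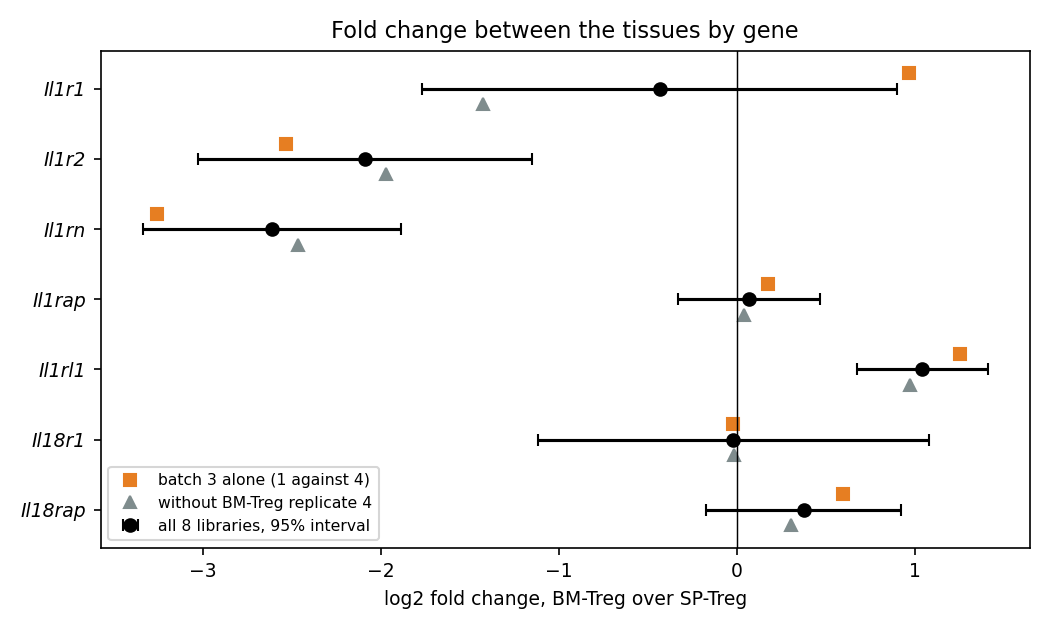
Log2 fold change of BM-Treg over SP-Treg for the 7 genes: points with 95% intervals from all 8 libraries, squares for batch 3 alone (1 BM-Treg against 4 SP-Treg libraries) and triangles without BM-Treg replicate 4. Only Il1r1 lay on opposite sides of 0 in batch 3 (0.97) and without BM-Treg replicate 4 (-1.43).

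Like Il1rap, Il1rl1 encodes a membrane form that signals and a soluble form that binds IL-33 without signalling. Il1rl1-201 (membrane form, 567 codons) and Il1rl1-203 (soluble form, 337 codons) share their first 985 coding bases; the soluble form then runs through the splice site for 29 bases up to and including its stop codon. The bases around this point are shown since the share of the soluble form is given below them; they were read from GENCODE vM21 (GRCm38), plus strand, 5′ to 3′, with the shared 45 bases at chr1:40446631-40446675 in lower case and those particular to each form in capitals (chr1:40450075-40450134 in Il1rl1-201, chr1:40446676-40446704 in Il1rl1-203).
Il1rl1-201: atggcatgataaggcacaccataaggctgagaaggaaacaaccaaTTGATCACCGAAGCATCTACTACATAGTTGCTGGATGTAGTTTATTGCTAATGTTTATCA
Il1rl1-203: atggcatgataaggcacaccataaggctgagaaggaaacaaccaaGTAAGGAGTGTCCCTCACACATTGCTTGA

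The soluble transcripts Il1rl1-203 and Il1rl1-205, which begin at different exons, together had 10.2, 8.74, 6.90 and 16.1 CPM in BM-Treg and 3.14, 4.47, 4.37 and 2.22 CPM in SP-Treg. The membrane transcript Il1rl1-201 had 57.8, 49.0, 51.1 and 59.5 compared to 32.3, 35.6, 16.1 and 17.9 CPM. In both, every BM-Treg library lay above every SP-Treg library. Of all transcripts tested, 9.84% had no overlap between the tissues. Log2 fold changes were 1.43 for Il1rl1-203 and 1.09 for Il1rl1-201, with edgeR adjusted p of 0.13 and 0.154 over all transcripts. With transcripts kept only at 10 or more counts in every library, these were 0.044 and 0.0444, and over the alternatives 0.044 to 0.415 for Il1rl1-203.

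The soluble transcripts took 13.6, 14.6, 11.7 and 20.9% of the gene's counts in BM-Treg and 8.86, 11.2, 12.7 and 10.3% in SP-Treg. Bone marrow libraries tended to the higher side, but BM-Treg replicate 3 and SP-Treg replicate 3 overlapped, with means of 15.2 ± 3.97% and 10.7 ± 1.60% (SD, n = 4). For Il1rl1-203 alone the share was 13.2 ± 3.25% in BM-Treg and 10.2 ± 1.21% in SP-Treg, a difference of 3.04 percentage points (exact two-sided permutation p = 0.0571), 7.85 points within batch 3 and 1.43 points without BM-Treg replicate 4. Of 16 shares tested in 6 of the genes this p was the smallest; adjusted over the 16 it was 0.914, and the smallest p that 4 against 4 libraries allow is 0.0286. The membrane transcript Il1rl1-202, which starts at another exon, took 40.7% of the counts in SP-Treg replicate 3 and at most 9.22% elsewhere.

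**Figure D4:**
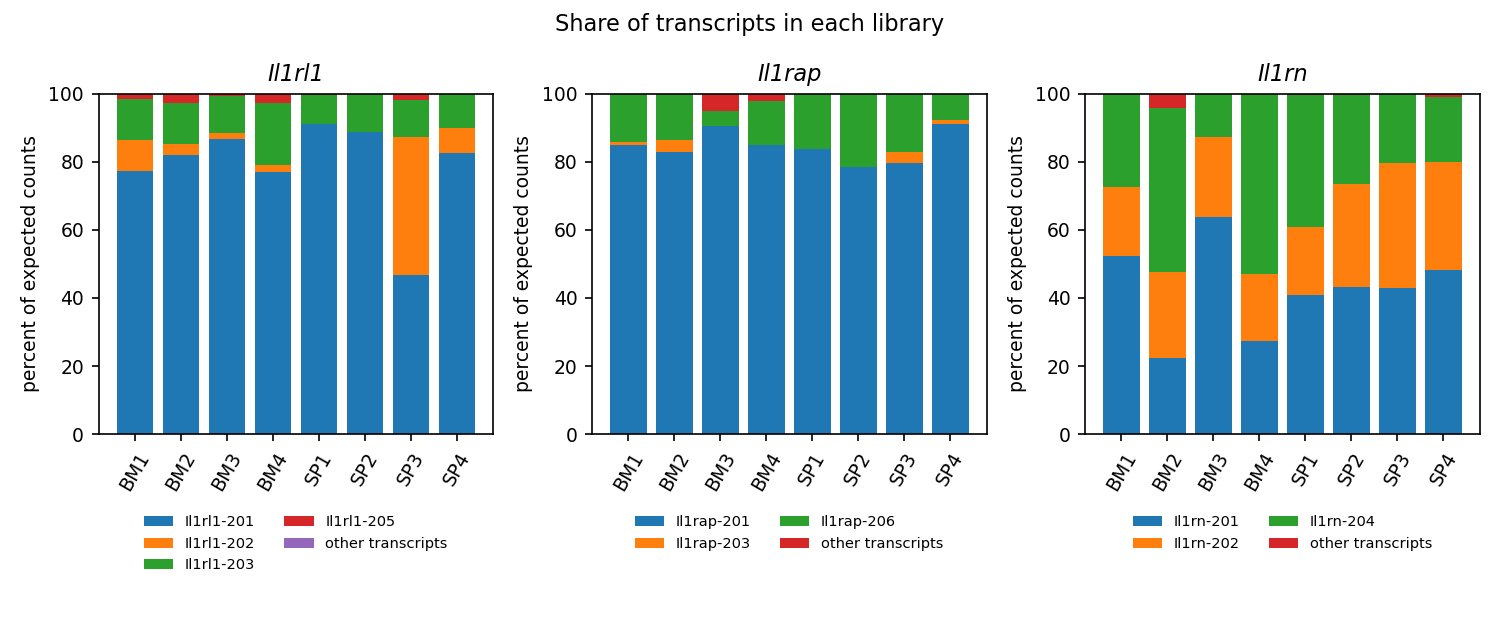
Share of each gene's expected counts (percent) taken by its transcripts in each library (BM1 to BM4 and SP1 to SP4 are the replicates) for Il1rl1, Il1rap and Il1rn. The soluble Il1rl1-203 and Il1rl1-205 together reached 20.9% in BM-Treg replicate 4, and Il1rl1-202 took 40.7% in SP-Treg replicate 3.

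Over the 7 genes, 16 of 28 transcripts passed the filter and 0 were called by edgeR, where 0.146% of all transcripts were called. An unadjusted p under 0.05 was reached by 6 of them, compared to 11.8% of all transcripts. With limma-trend on transcript FPKM, Il1rn-202 was called (adjusted p = 0.0204), where 0.396% of all transcripts were called. With the filter of 10 counts in every library, which removed Il1rn-202 and left 10 of the transcripts, edgeR called 5, namely Il1rl1-201, Il1rl1-203, Il1r2-201, Il1rn-201 and Il1rn-204, where 2.19% of all transcripts were called (434 of 19801).

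The promoters of the 7 genes were searched for short motifs of factors active in T cells. RefSeq gives 13 starts for the 7 genes, all of which matched by symbol. In the 250 bases before each start, on both strands, a match to the AP-1 motif was present in 6.75% of 32851 promoters, to a GATA motif in 9.99%, to a STAT motif in 7.02% and to the kappa-B motif in 7.25%. Il1rn held an AP-1 match before start 1 of its 3 starts and no match before the others. Il1rl1 held a GATA match before each of its starts. Il1r2 held a STAT match 111 to 103 bases before its start. That window lies within introns of longer Il1r2 transcripts of GENCODE and holds exon bases of Il1r2-203. Il1r1 held a kappa-B match before its start 2, in a window that lies within an intron of Il1r1-201. Il18r1 held 2 STAT matches before its start 3, in a window with exon bases of Il18r1-203, Il18r1-204 and Il18r1-205. Starts of the 7 genes that are not named here held no match to these motifs. Both Il1rl1 windows and that of Il1rn are printed to show where the matches lie, from RefSeq (GRCm38.p6), plus strand, 5′ to 3′, with the match in capitals: chr2:24336610-24336859 for Il1rn start 1, chr1:40429320-40429569 for Il1rl1 start 1 and chr1:40439379-40439628 for Il1rl1 start 2, where the match reads on the minus strand. The window of Il1rl1 start 1 lies outside the gene's exons, that of start 2 lies within introns of Il1rl1-204 and Il1rl1-205 and holds exon bases of Il1rl1-202, and that of Il1rn holds exon bases of Il1rn-203, Il1rn-204 and Il1rn-205.
Il1rn start 1: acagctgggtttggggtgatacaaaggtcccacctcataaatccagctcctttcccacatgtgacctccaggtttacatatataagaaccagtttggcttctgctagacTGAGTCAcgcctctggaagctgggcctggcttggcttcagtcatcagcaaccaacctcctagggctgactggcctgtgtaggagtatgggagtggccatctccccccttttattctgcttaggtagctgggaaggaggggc
Il1rl1 start 1: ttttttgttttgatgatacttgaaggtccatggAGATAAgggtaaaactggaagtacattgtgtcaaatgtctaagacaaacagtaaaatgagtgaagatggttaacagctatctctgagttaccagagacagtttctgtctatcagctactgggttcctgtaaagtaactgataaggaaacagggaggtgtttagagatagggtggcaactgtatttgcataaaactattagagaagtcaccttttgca
Il1rl1 start 2: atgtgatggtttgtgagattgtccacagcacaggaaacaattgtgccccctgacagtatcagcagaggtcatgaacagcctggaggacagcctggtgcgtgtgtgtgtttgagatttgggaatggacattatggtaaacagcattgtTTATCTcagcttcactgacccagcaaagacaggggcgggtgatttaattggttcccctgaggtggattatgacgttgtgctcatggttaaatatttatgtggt
A match of letters is a description of the window and was not tested against the expression values.

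The IL-18 receptor genes Il18r1 (chr1:40465552-40500854) and Il18rap (chr1:40515362-40551705) follow Il1rl1 on the same strand. Il18r1, the chain that binds IL-18, measured 57.4, 63.9, 69.2 and 62.5 CPM in BM-Treg replicates 1 to 4 and 104, 91.1, 23.2 and 38.1 CPM in SP-Treg replicates 1 to 4. The bone marrow libraries lay close together between a high pair and a low pair of spleen libraries. The log2 fold change was -0.02 (SE 0.46, 95% interval -1.12 to 1.08, edgeR adjusted p = 0.985) and -0.02 within batch 3, an interval that allows a change of 1 in either direction. Its sign was positive without BM-Treg replicate 1 (0.05), SP-Treg replicate 1 (0.33) or SP-Treg replicate 2 (0.19). Klf12, Ttbk1 and Itpripl2 were closest in pattern, each at a difference of 0.30 to 0.31.

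Il18rap, the signalling chain, measured 17.9, 17.6, 11.97 and 19.2 CPM in BM-Treg replicates 1 to 4 and 15.6, 17.9, 7.12 and 10.6 CPM in SP-Treg replicates 1 to 4. SP-Treg replicates 3 and 4 were low in both chains, whereas BM-Treg replicate 3 was the lowest bone marrow library for Il18rap and the highest for Il18r1. The log2 fold change was 0.37 (SE 0.25, 95% interval -0.17 to 0.92, edgeR adjusted p = 0.413) and 0.60 within batch 3. Crocc (0.16), Lysmd1 (0.20) and AW555464 (0.21) were closest in pattern. The log2 ratio of Il18rap to Il18r1 in FPKM was -1.15, -1.42, -2.41 and -1.19 in BM-Treg and -2.65, -1.80, -0.88 and -1.87 in SP-Treg. Il18r1 exceeded Il18rap in every library, and the tissues overlapped. The strand setting of the counting is not given in the sources used here; Il1rl1, Il18r1 and Il18rap lie on the same strand.

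Of 5 other receptors and binding proteins of the family, 2 passed the filter and 0 were called by edgeR or by DESeq2. Their median log2 fold change was -0.07, compared to -0.01 over all genes tested, and -0.11 within batch 3. It was 0.02 on log2(FPKM + 1), 0.04 without SP-Treg replicate 4 and 0.16 over 3 genes with no filter beyond 1 count. Sigirr, which dampens signalling, had 13.8 ± 2.10 FPKM in BM-Treg and 11.98 ± 1.82 in SP-Treg, and Il18bp, a soluble inhibitor of IL-18, 5.39 ± 1.21 and 6.17 ± 1.898 (SD, n = 4). Of the 2, 0 had an unadjusted p under 0.05. The Treg themselves had few counts for the ligands: of 9 ligand genes 4 were at 0 in every library, Il33 had 1 count over all 8, Il1b at most 1 and Il1a at most 3 in a library, and only Il18 passed the filter (log2 fold change 0.41, 0.94 within batch 3, edgeR adjusted p = 0.723; from 0.10 without SP-Treg replicate 1 to 1.04 without SP-Treg replicate 3). Amplified reads without molecular identifiers are not independent molecules, so that these low counts carry more than counting error.

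Of 19 genes that carry the signal from the TIR domain, all passed the filter, 1 was called higher and 0 lower, with a median log2 fold change of -0.03 (0.07 within batch 3, 0.07 on log2(FPKM + 1), and slightly positive without BM-Treg replicate 1 or SP-Treg replicate 1, at 0.0089 and 0.0028). These counts stand beside 3.72% and 5.02% of all genes tested. An unadjusted p under 0.05 was reached by 3, compared to 23.3% of all genes, and DESeq2 called 1, compared to 12.7%. The called gene was Irak2, a kinase of the IRAK family, with 41.7 CPM in bone marrow, 30.9 CPM in spleen and a log2 fold change of 0.44 (edgeR adjusted p = 0.0446; 0.19 within batch 3). It was called without BM-Treg replicate 4 or SP-Treg replicate 4, and missed the threshold without any other library (0.0625 to 0.129; 0.0153 to 0.699 over all alternatives). Irak3, which restrains the pathway, had a log2 fold change of 0.86 with an edgeR adjusted p of 0.172. Tab2 (142 ± 6.19 and 127 ± 16.7 FPKM) and Peli1 (86.5 ± 16.0 and 93.2 ± 8.96 FPKM) had the highest levels per length, and neither was called.

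Of 10 inflammasome and processing genes, 6 passed the filter, 1 was called higher and 1 lower by edgeR (median -0.17; -0.24 within batch 3, -0.04 without BM-Treg replicate 1, and 0.10 over 10 genes with no filter beyond 1 count), where 3.72% and 5.02% of all genes were called. Pycard, the adaptor ASC, had 33.6 ± 4.42 FPKM in BM-Treg and 21.0 ± 2.19 in SP-Treg, which is a log2 fold change of 0.61 (edgeR adjusted p = 0.00999; 0.91 within batch 3). Casp4, the sensor of cytosolic lipopolysaccharide, had 32.9 ± 7.82 and 63.4 ± 14.4 FPKM, a log2 fold change of -1.06 (edgeR adjusted p = 0.00327; -1.21 within batch 3). Pycard missed the threshold in batch 3 alone (0.0658) and Casp4 there (0.0715) and with the batch term (0.0768). Aim2 had 44.9 ± 6.35 and 33.02 ± 3.14 FPKM and a log2 fold change of 0.30 and was not called by edgeR (adjusted p = 0.147) or DESeq2. With Aim2, 3 of the 6 genes had an unadjusted p under 0.05 in edgeR, compared to 23.3% of all genes.

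Among 10 genes known from follicular regulatory T cells, 9 passed the filter, 6 were called lower in BM-Treg by edgeR and 0 higher, with a median log2 fold change of -0.69 (-0.67 within batch 3). Of all genes tested, 5.02% were called lower. DESeq2 also called 6, and 7 had an unadjusted p under 0.05 in edgeR, compared to 12.7% and 23.3% of all genes. Sostdc1 had 16, 16, 15 and 16 expected counts in BM-Treg and 406, 394, 236 and 235 in SP-Treg, which is a log2 fold change of -4.81 (edgeR adjusted p = 3.81e-07; -4.16 within batch 3). Cxcr5, the follicle-homing receptor, changed by -1.54 (edgeR adjusted p = 0.000176; -1.72 within batch 3), Angptl2 by -1.23 (0.000206; -1.45), Bcl6 by -0.89 (0.00227; -0.91), Sh2d1a by -0.69 (0.00252; -0.67) and Icos by -0.49 (0.0439; -0.37). Icos lost its call without any 1 library other than SP-Treg replicates 3 and 4 (0.0641 to 0.144; 0.0118 to 0.527 over all alternatives). With the batch term and in batch 3 alone 3 genes were called lower, since Bcl6 (0.0802 and 0.119), Sh2d1a (0.0852 and 0.163) and Icos missed the threshold. Pdcd1, Maf and Tox2 were not called by edgeR, with log2 fold changes of -0.46, -0.32 and 0.25. Whether the cells with Il1r2 and Il1rn carried these genes was not tested.

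Of 10 genes known from ST2+ Treg of non-lymphoid tissue, all passed the filter, 2 were called higher and 1 lower, with a median log2 fold change of 0.10 (0.35 within batch 3; -0.03 without BM-Treg replicate 3 and -0.01 without SP-Treg replicate 2). Of all genes tested, 3.72% were called higher and 5.02% lower. Klrg1 had a log2 fold change of 1.07 (edgeR adjusted p = 0.00105; 1.57 within batch 3) and Gata3 one of 0.43 (0.00906; 0.47). Batf changed by -0.56 (edgeR adjusted p = 0.0483; -0.57 within batch 3) and was called without BM-Treg replicate 3 or SP-Treg replicate 3 but not without any other library (0.0903 to 0.131; 0.0128 to 0.303 over all alternatives). Rora (0.46), Pparg (1.16), Ccr2 (0.62), Ccr8 (-0.62), Nfil3 (-0.54), Areg (-0.34) and Il10 (-0.23) were not called by edgeR. In edgeR 6 of the 10 had an unadjusted p under 0.05, Pparg, Ccr2 and Nfil3 among them, and DESeq2 called 5, namely 4 higher (Klrg1, Gata3, Pparg and Ccr2) and Batf lower, compared to 23.3% and 12.7% of all genes. Klrg1 was called in 18 of 18 alternatives and Gata3 in 14, the others being the batch term (0.11), batch 3 alone (0.213) and limma-trend on FPKM (0.0728 and 0.0733).

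Since neutrophils and monocytes also express Il1r2 and Il1rn, markers of other cells that a sort may carry along were summed in each library. The sum of 11 neutrophil markers was 2.52, 6.03, 1.58 and 10.5 CPM in BM-Treg replicates 1 to 4 and 0.432, 21.4, 9.55 and 8.01 CPM in SP-Treg replicates 1 to 4. Of these, 2 passed the filter and 0 were called by edgeR. Of all genes tested, edgeR called 8.75% and DESeq2 12.7%, and 23.3% had an unadjusted p under 0.05 in edgeR. Ngp had a log2 fold change of -2.10 with an unadjusted p under 0.05 in edgeR, and was called by DESeq2. Ngp was the most abundant, at 2.06 CPM on average, and each of the 11 had counts in some library. The sum of 7 monocyte and macrophage markers, led by Itgam, was 44.6, 38.6, 29.8 and 38.6 CPM and 21.9, 52.2, 36.6 and 23.6 CPM, with 0 of 4 tested genes called or at an unadjusted p under 0.05 by edgeR and 0 by DESeq2. The tissues overlapped in both sums, and what such cells contributed to Il1r2 and Il1rn was not tested.

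Erythroid markers (4, led by Hba-a2) summed to 4.77, 9.51, 7.41 and 8.53 CPM in BM-Treg and 1.15, 61.9, 129 and 78.3 CPM in SP-Treg, with 0 of 3 tested called by edgeR (3 at an unadjusted p under 0.05, and 2 called by DESeq2). B cell markers (5, led by Cd79b) summed to 12.1, 11.0, 10.8 and 14.0 CPM and 6.33, 95.4, 20.01 and 15.6 CPM, with 0 of 4 called by edgeR (2 at an unadjusted p under 0.05, and 1 called by DESeq2). SP-Treg replicate 1 lay under the bone marrow libraries in both sums. Of all genes tested, 8.75% were called by edgeR (5.02% lower in BM-Treg) and 12.7% by DESeq2, and 23.3% had an unadjusted p under 0.05 in edgeR. NK cell markers (6, led by Nkg7) summed to 8.77, 14.6, 13.4 and 8.70 CPM and 11.7, 32.1, 20.7 and 15.4 CPM. Of 2 tested, Gzma was called lower in BM-Treg (edgeR adjusted p = 0.0216). The 2 CD8 T cell genes summed to 12.6, 11.8, 12.1 and 10.9 CPM and 13.2, 41.1, 22.7 and 16.6 CPM, without overlap between the tissues. Of single genes tested, 16.2% had no such overlap. Of the 2 CD8 T cell genes tested, 2 had an unadjusted p under 0.05 in edgeR, and Cd8a was called lower (edgeR adjusted p = 0.0293). Each of these calls was lost without any of 4 libraries (Gzma 0.0507 to 0.0757, Cd8a 0.0656 to 0.102; over all alternatives 0.00157 to 0.127 and 0.000813 to 0.488). Their part in the lower Il1r2 and Il1rn of bone marrow was not tested.

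For Il1rl1, which mast cells, basophils and group 2 innate lymphoid cells also express, the corresponding lists were summed in the same way. The 8 mast cell and basophil markers, led by Hdc, summed to 1.26, 1.67, 1.58 and 1.25 CPM in BM-Treg and 0.144, 2.08, 2.18 and 1.54 CPM in SP-Treg, with Fcer1a at 0 in all libraries and 0 of 1 tested called or at an unadjusted p under 0.05 by edgeR and 0 by DESeq2. The 4 markers of group 2 innate lymphoid cells summed to 27.7, 20.1, 21.0 and 17.2 CPM and 11.6, 15.1, 21.9 and 9.85 CPM, most of it Il17rb (17.2 CPM on average). Of these, 0 of 2 tested were called by edgeR or DESeq2, with Il17rb (log2 fold change 0.58) at an unadjusted p under 0.05. Il13 and Il5 stood at no more than 0.0735 CPM in any library. The tissues overlapped in both sums. Dendritic cell markers (5, led by Zbtb46) summed to 20.7, 21.0, 21.9 and 12.2 CPM and 27.1, 36.4, 24.3 and 21.5 CPM, with 0 of 2 tested called by edgeR. Zbtb46 had an unadjusted p under 0.05 in edgeR and was called by DESeq2. Over all genes tested, 8.75% were called by edgeR and 12.7% by DESeq2, and 23.3% had an unadjusted p under 0.05 in edgeR.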

How the data were processed

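RNA from FACS-isolated cells was amplified by single primer isothermal amplification and sequenced as single-end reads of 80 nt. The authors deposited an expected count per gene and per transcript, not normalized between libraries, and FPKM, which the authors scaled by transcript length and depth; the submitters' processing notes name cutadapt 1.9, STAR 2.5.2a, RSEM 1.2.30 and the build GRCm38. The annotation release and the strand setting are not given in the sources used here. The columns of per-library values that were matched to no library numbered 0.

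Expected counts were rounded, filtered with edgeR's filterByExpr, normalized by TMM and fitted without covariates for edgeR's quasi-likelihood test, at a Benjamini-Hochberg adjusted p threshold of 0.05 over all genes or all transcripts. Transcript shares were compared by exact two-sided permutation tests where the mean share was at least 5% and the gene had at least 20 counts on average in each tissue. Tests were tried on simulated counts, and no result of that trial is given here. The genes named were the 7 members, genes of 6 pathway lists (other receptors, ligands, TIR signalling, inflammasome, follicular regulatory T cell, ST2+ tissue Treg), called ones first and then by FPKM, the 3 genes nearest to each member in pattern, and 6 genes that check the sort. Markers of 10 cell types were summed, and markers with no row of that name were not analysed here. Members and lists were chosen with earlier results of these data known. Xist was named after its values had been seen, from genes called for the batch coefficient. Of the genes these rules select, 2 are not reported here. Alternatives were DESeq2 size factors, DESeq2, limma-voom, limma-trend on FPKM with 1 or 0.1 added before taking log2, 2 other filters, a term for batch, the libraries of batch 3 only, a block for replicate number, leaving out each library in turn and a threshold of 0.01. The number of transcripts called under these settings and the batch coefficient were added after the data had been seen. Transcript names and coding sequences came from GENCODE vM21 and promoters from RefSeq. R 4.3.3, edgeR 4.0.16, limma 3.58.1, DESeq2 1.42.0, Python 3.11.15, pandas 2.3.3, SciPy 1.17.1 and matplotlib 3.10.9 were used.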

Additional observations from a re-analysis of the deposited data

Results flagged for a closer look

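In 7 of 46 groups of 4 libraries a single library lay far from the rest by Dixon's criterion, which divides the gap to the nearest neighbour by the group's range, where chance flags about 1 in 20 groups. Il1r1 in BM-Treg replicate 4, at 15.9 CPM, was separated by a gap of 0.942 of the range. The same library gave 73.7% of its Il1r1 counts to Il1r1-201 and 26.3% to Il1r1-202, whereas the other BM-Treg libraries gave all to Il1r1-201, so that the gap was 1 for each transcript. SP-Treg replicate 3 was the only SP-Treg library with counts on Il1r1-202, which took 51.8%, with 48.2% on Il1r1-201 and again a gap of 1 for each. The soluble Il1rap-206 took 4.54% of the gene's counts in BM-Treg replicate 3, a gap of 0.874. The soluble Il1rl1-203 took 18.0% in BM-Treg replicate 4, a gap of 0.832. The groups are not independent, since the Il1r1 shares add up to the whole.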

How the results depend on the processing

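Of the 7 genes, Il1rn kept its direction and its call under all 19 alternatives (log2 fold change -3.28 to -2.41, adjusted p 3.33e-16 to 0.0318), Il1rl1 its direction under 19 and its call under 18 (0.88 to 1.25, adjusted p 7.26e-07 to 0.0808), and Il1r2 its direction under 19 and its call under 12 (-2.55 to -1.86, adjusted p 6.7e-05 to 0.158; tests by edgeR unless named). Il18rap kept its direction under 19 (0.18 to 0.60) and was called under none. Over all results and alternatives, 515 values kept direction and side of the threshold, 45 no longer passed it or were lower counts, 12 newly passed it or were higher counts, and 46 changed sign. The causes of these changes were not tested.

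Genes called numbered 1172, and 765 and 728 with limma-trend on log2(FPKM + 1) and log2(FPKM + 0.1), where 63% and 62.4% of calls were higher in BM-Treg compared to 42.6%. They numbered 258 with a batch term, 79 in batch 3 alone, which has a single BM-Treg library, 427 at a threshold of 0.01 and 690 (without BM-Treg replicate 2) to 1048 with a library left out. DESeq2 called 1707 genes, of which 46% were higher, and edgeR called 1326 with no filter beyond 1 count, 1231 with 10 or more counts in every library (51.3% higher) and 1157 with DESeq2 size factors, and limma-voom called 1218. Of the 7 genes, 1 instead of 2 was called lower with no filter beyond 1 count, with a batch term, in batch 3 alone, at 0.01 and without BM-Treg replicate 2 (1 to 2 with a library left out), and 0 instead of 1 higher in batch 3 alone. In each case the lost gene was Il1r2 (-2.07, -2.55, -2.53 and -2.09 in the settings with all or batch 3 libraries; -2.55 to -1.86 with a library left out) or Il1rl1 (1.25 in batch 3 alone). Without BM-Treg replicate 4, Il1r2 (-1.98) was lost and Il1r1 (-1.43) called.

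Il1r1 turned to 0.95 with a batch term and 0.97 in batch 3 alone (-1.43 to -0.17 with a library left out). Il18r1 turned to 0.22 with limma-voom, 0.0109 with 10 counts in every library, and 0.26 and 0.29 with limma-trend on FPKM (-0.30 to 0.33 with a library left out), and Il1rap reached -0.0013 to 0.18 with a library left out.

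Transcripts called numbered 42, and 434 with 10 counts in every library, 125 with a batch term, 114 with limma-trend, and 0 (without BM-Treg replicate 2) to 43 with a library left out. With a batch term Il18r1-202 (0.0147), Il18r1-203 (-0.95) and Il1r1-201 (0.72) changed sign. With limma-trend Il1rl1-202 (0.05) and Il18r1-202 (0.26) did. With a library left out, Il1rl1-202 ranged from -1.30 to 2.45, Il18r1-202 from -0.33 to 0.30, Il18rap-204 from -0.0457 to 0.56 and Il18r1-203 from -0.16 to 0.51. Differences in share, in percentage points, changed sign as shares of FPKM for Il1rl1-201 (-2.38) and Il1rn-201 (1.54), and in batch 3 alone for Il1r1-201 (-13.4), Il1r1-202 (13.4) and Il1rl1-201 (-0.42). With a library left out they ranged from -1.53 to 1.91 for Il18r1-202, -1.91 to 1.53 for Il18r1-203, -5.87 to 1.68 for Il18rap-201, -0.92 to 2.29 for Il18rap-203, -3.36 to 0.74 for Il18rap-204, -6.58 to 12.9 for Il1r1-201, -12.9 to 6.58 for Il1r1-202, -6.84 to 8.00 for Il1rl1-201, -11.9 to 1.70 for Il1rl1-202 and -9.79 to 4.03 for Il1rn-201.

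With the replicate number as a block, 948 genes and 1 transcript were called and 1 of the 7 genes was called lower, Il1r2 being at -2.17 (edgeR adjusted p = 0.0934, in the range of 6.7e-05 to 0.158 given above); Il18r1 stood at 0.20, Il1rl1-202 at 2.01 and Il18r1-202 at 0.23. Deviations from the tissue mean correlated at -0.106, 0.0595, -0.176 and 0.0398 between libraries with the same number. These values cannot decide whether the numbers pair the libraries, since no correlation of libraries known to be paired was at hand. In the labels, BM-Treg replicates 1 to 3 are female and of batch 1, while all SP-Treg libraries are male and of batch 3.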

Other observations

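Genes called for the batch coefficient besides Il1r1 and Xist (edgeR, BM-Treg replicate 4 compared to replicates 1 to 3, chosen after the data had been seen) included Gm17060, Gm11878, AC123795.1, 2210418O10Rik, Fam166a, AY036118, Gm20634, Pdf and Gm9797. Fam166a measured 5.32, 6.68, 5.22 and 21.9 CPM in BM-Treg replicates 1 to 4 and 10.8 to 15.1 CPM in SP-Treg, and AC123795.1 2.85, 1.902, 2.24 and 18.6 CPM and 4.94 to 8.70 CPM. In both, as in Il1r1, BM-Treg replicate 4 lay above the SP-Treg libraries, which share its batch.

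These values rest on 4 libraries per tissue, of which a single BM-Treg library shares a batch with the spleen. Reads of bulk libraries do not show which cells carry an RNA, and counts of soluble and membrane forms rest on the bases in which overlapping transcripts differ. RNA levels of receptors were measured, not receptor protein or signalling. The lists of follicular and ST2+ Treg genes describe these libraries beside the receptors and were not tested as sets.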
